A study of Mus musculus with 6 samples.

Results

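The mir-99, mir-100 and mir-125 genes were followed in small RNA from mouse bone cells and from muscle cell vesicles. The 6 entries named mir-99a, mir-99b, mir-100, mir-125a, mir-125b-1 and mir-125b-2 were taken by name from the 1006 precursor entries of the authors' miRNA table, and all 6 were found. The 6 libraries comprised 1 of primary osteoblasts (OB), 1 of primary bone marrow cells (BM), 2 of vesicles shed into the medium by C2C12 cells (Myo-EVs) and 2 of such vesicles from C2C12 cells kept under fluid flow shear stress on an orbital shaker (FFSS-Myo-EVs). C2C12 is a mouse myoblast line, and shear stress was its only treatment named in the titles. The labels give the same mixed background, 81.25% C57BL/6J and 18.75% 129/SvJ, for all 6 libraries, the C2C12 vesicles included, an age of 8 to 10 weeks for OB and BM, and a culture of 48 hr. The growth protocol attached to every library speaks of vitamin D or dexamethasone and not of shear stress, and the study's methods take osteoblasts from the calvariae of pooled newborn males and bone marrow from a single male. The vesicles were pelleted by ultracentrifugation of medium made with vesicle-depleted serum. No genotype other than this background is named, and 1 cell line stood for muscle. None of the libraries was of the C2C12 cells themselves. Whether a difference of the vesicles from OB or BM belongs to vesicles or to the cell line thus cannot be told apart.

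The 6 genes form 3 clusters that arose by duplication of 1 ancestral locus. Each cluster carries 1 member of the mir-99/100 family, a let-7 gene and 1 member of the mir-125 family, the vertebrate relatives of lin-4 of the nematode. Clustered miRNAs are cut from a common primary transcript by Drosha and from the hairpin by Dicer, and each mature strand then pairs with messenger RNAs through its seed, bases 2 to 8. The mir-99/100 family is known for repressing mTOR and the IGF1 receptor, and the mir-125 family for repressing Lin28, the protein that blocks let-7 maturation. miR-125b is also known for its high level in blood stem cells.

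The mature sequences are shown because they decide which entries the reads can tell apart. They are from RefSeq on GRCm38.p6, in which mature strands of all 6 genes were found, are written 5′ to 3′ and have the seed in capitals. The first group below holds the 5p strands of the mir-99/100 family.
miR-99a-5p: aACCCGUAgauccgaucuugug
miR-100-5p: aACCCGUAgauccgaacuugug
miR-99b-5p: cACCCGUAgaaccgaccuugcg
All 3 have the seed ACCCGUA, which no other mature miRNA among the 1738 in the RefSeq table has. Counted from the 5′ end, miR-99a-5p and miR-100-5p differ at 1 base, U16A with the base of miR-99a-5p first. From miR-99a-5p to miR-99b-5p there are 4 differences, A1C, U11A, U16C and U21C.

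The next group holds the 5p strands of the mir-125 family and of miR-351, which has the same seed.
miR-125b-5p: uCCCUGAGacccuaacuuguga
miR-125a-5p: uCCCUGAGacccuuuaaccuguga
miR-351-5p: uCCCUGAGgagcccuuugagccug
Their seed is CCCUGAG, which in the RefSeq table miR-6367 and miR-6394 also have. The leading 13 bases of miR-125a-5p and miR-125b-5p are the same, and miR-351-5p shares 8 with miR-125a-5p. The genes mir-125b-1 and mir-125b-2 give the same 5p strand, so only their 3p strands, below, tell them apart.
miR-125b-1-3p: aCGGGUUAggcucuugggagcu
miR-125b-2-3p: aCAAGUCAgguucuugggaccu
The table gives 1 count per precursor, with the 5p and 3p strands together.

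All 3 clusters lie on the plus strand of GRCm38, the assembly also called mm10, which is the build named in the submitters' processing notes. In the GENCODE M21 annotation, mir-99a (chr16:77598936-77599000) and mir-125b-2 (chr16:77646273-77646343) lie in introns of the noncoding gene Mir99ahg with 47.272 kb between them, and the end of mir-125b-2 also overlaps an exon of C130023A14Rik. The genes mir-100 (chr9:41531425-41531504) and mir-125b-1 (chr9:41581926-41582002) lie in introns of the noncoding gene 3110039I08Rik, 50.421 kb apart. There, mir-100 also overlaps an exon of Gm48742 on the opposite strand, and mir-125b-1 an exon of Gm28119 on the same strand. The third pair is compact, with only 554 bases between mir-99b (chr17:17830188-17830257), in an intron of the protein-coding gene Spaca6, and mir-125a (chr17:17830812-17830879), which overlaps a Spaca6 exon. The let-7 gene sits between the 2 mates in each cluster, as the map of the 3 clusters shows.

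**Figure D1:**
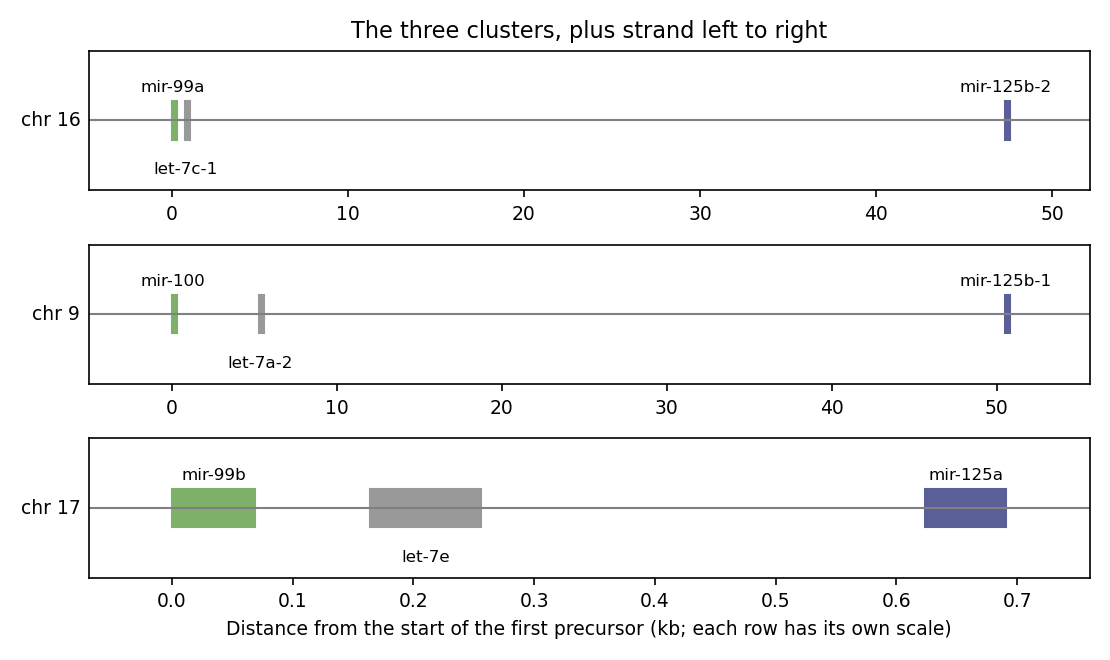
Positions of the precursors in the 3 clusters on GRCm38, as distance in kb from the start of the first precursor, with a scale of its own in each row. Green boxes are mir-99/100 genes, grey boxes let-7 genes and blue boxes mir-125 genes (boxes in the upper 2 rows are drawn wider than to scale), and the mates are 47.272, 50.421 and 0.554 kb apart from top to bottom.

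Levels below are normalized expression values, the count of an entry multiplied by 1 constant per library that the authors set. Total counts ranged from 2414132 to 6092460 per library. Small RNA reads are not corrected for length. OB and BM rest on 1 library each without replicate error, and their 95% intervals are exact Clopper-Pearson intervals that cover counting error only, because reads amplified by PCR are not independent molecules. In these bulk libraries, a lower level can mean fewer cells with the miRNA or less of it per cell, and these cannot be told apart. As a check of the labels, mir-223, a myeloid miRNA, was 9710.3 in BM but 122.0 in OB and at most 7.0 in vesicles. The 4 blood cell markers found of 5 listed had a sum of 11281.2 in BM but 126.5 in OB and at most 43.9 in vesicles. The sum of the 6 mesenchymal markers was 536435.8 in OB, 22199.3 in BM and at least 335111.9 in each vesicle library. Most of the vesicle sum was mir-143, at least 274481.7 in each library against 269505.8 in OB, and mir-145a was also higher than in OB. The levels of mir-199a-1, mir-199a-2, mir-199b and mir-214 were lower in each vesicle library than in OB. For mir-199b the level was 66862.0 in OB and at most 13493.5 in the vesicles. Of the 6 muscle markers, mir-206 was from 1968.5 to 2610.0 in the vesicles, whereas mir-1a-1 was at 0 in all 4 and the others did not exceed 45.2. The serum marker mir-122 was 3.9 in OB, 2.4 in BM and at most 17.9 in the vesicles.

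Osteoblasts carried the mir-99/100 family at its highest summed level. There, mir-100 was the most abundant member, with a level of 56851.9 (95% interval 56509 to 57197), ranked 13 among all entries. The level of mir-99a was 35767.6 (35494 to 36042) and that of mir-99b 28925.8 (28680 to 29173). The mir-125 entries followed with 27100.6 (26862 to 27340) for mir-125b-1, 22172.3 (21957 to 22389) for mir-125b-2 and 6375.7 (6260 to 6493) for mir-125a. No 2 neighbours in this order had overlapping counting intervals. For mir-125b-1 and mir-125b-2 the intervals do not rank the copies, because these share miR-125b-5p and how shared reads were assigned is not given.

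Bone marrow cells had a different order, in which mir-99a stood far above the other members. Its level was 13234.9 (95% interval 13094 to 13377), ranked 29. The next was mir-125b-1 with 2094.3 (2038 to 2152), followed by mir-99b with 1863.2 (1810 to 1917) and mir-125b-2 with 1827.8 (1775 to 1881), whose intervals overlap each other. The level of mir-100, which differs from mir-99a at 1 base of the mature strand, was only 1597.9 (1549 to 1648), and mir-125a was lowest with 575.1 (545.9 to 605.5).

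In the vesicles the chromosome 17 pair dominated. The level of mir-99b was 52743.1 and 65286.6 in Myo-EVs against 52786.7 and 52207.1 in FFSS-Myo-EVs, with ranks from 9 to 13. The level of mir-125a was 60723.6 and 53944.6 in Myo-EVs against 44177.5 and 42061.2 in FFSS-Myo-EVs, with ranks from 11 to 13. In Myo-EVs these 2 entries did not differ beyond their spread, with 59014.9 ± 8869.6 and 57334.1 ± 4793.5 (SD, n = 2), whereas in FFSS-Myo-EVs mir-99b was above mir-125a in both libraries.

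The mir-125b entries took the middle place. The level of mir-125b-1 was 17719.6 and 15887.2 in Myo-EVs against 16041.8 and 16200.7 in FFSS-Myo-EVs. The level of mir-125b-2 was 16713.7 and 14788.9 in Myo-EVs against 14886.2 and 15127.5 in FFSS-Myo-EVs. In all 4 libraries mir-125b-1 was slightly the higher of the 2 entries. Between the groups, the FFSS-Myo-EV values of each entry lay within its Myo-EV range.

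The members of lowest level in the vesicles were mir-99a and mir-100, the leading members in OB. The level of mir-99a was 5068.3 and 4389.5 in Myo-EVs against 6350.8 and 6391.5 in FFSS-Myo-EVs. That of mir-100 was 4625.6 and 5097.3 in Myo-EVs against 6465.3 and 6347.2 in FFSS-Myo-EVs. These 2 entries overlapped each other in each vesicle group, and for both the FFSS-Myo-EV libraries were above the Myo-EV libraries. They were also above on TMM-scaled values, where 26.0% of the 354 entries tested were.

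**Figure D2:**
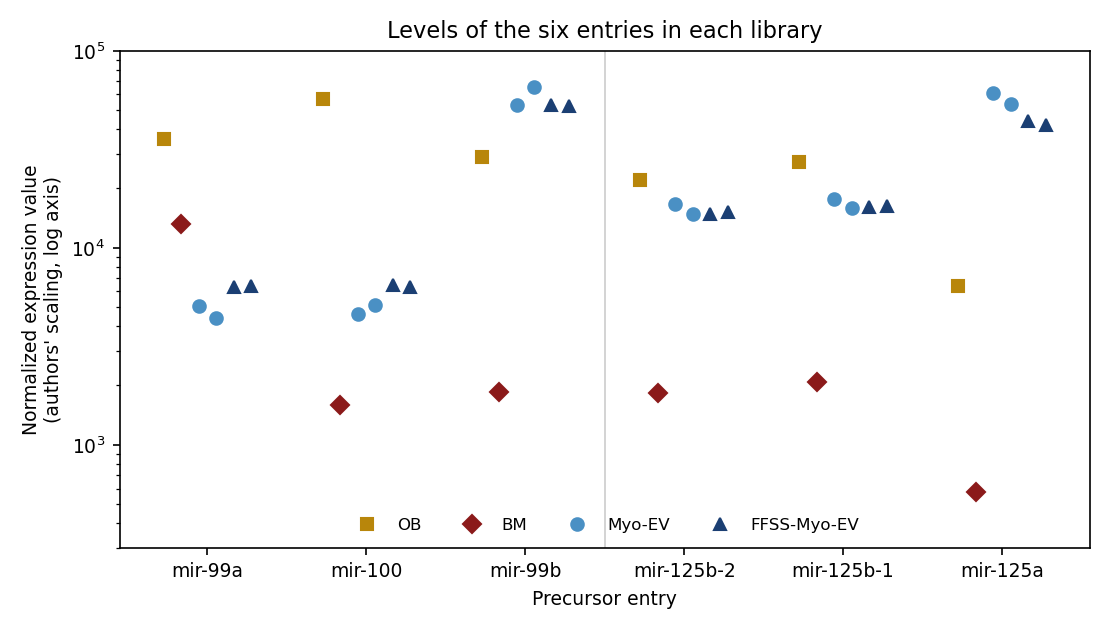
Normalized expression value (log axis) of the 6 entries in each of the 6 libraries, with 1 point per library (squares OB, diamonds BM, circles Myo-EV, triangles FFSS-Myo-EV). In BM, mir-99a was 13234.9 and every other entry was at or below 2094.3, whereas in the vesicles mir-99b and mir-125a were at or above 42061.2.

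Summed over mir-99a, mir-99b and mir-100, the family took 4.25% of all counts in OB, 0.690% in BM and between 2.17% and 2.59% in the vesicle libraries. The make-up of that sum differed between the sources. In OB it was 46.8% mir-100, 29.4% mir-99a and 23.8% mir-99b. In BM, mir-99a made up 79.3%. In the vesicles, mir-99b made up 84.5% and 87.3% of it in Myo-EVs against 80.5% and 80.4% in FFSS-Myo-EVs. The share of mir-99a was 8.12% and 5.87% in Myo-EVs against 9.68% and 9.84% in FFSS-Myo-EVs. For mir-125, with mir-125b-1 standing for both copies, mir-125a made up 19.0% in OB and 21.5% in BM. It made up 77.4% and 77.2% in Myo-EVs against 73.4% and 72.2% in FFSS-Myo-EVs. How reads shared by the copies were assigned is not given, and if they were split between the copies these shares would be lower. OB and BM, which differed in the make-up of the mir-99/100 family, were thus close in that of the mir-125 family.

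**Figure D3:**
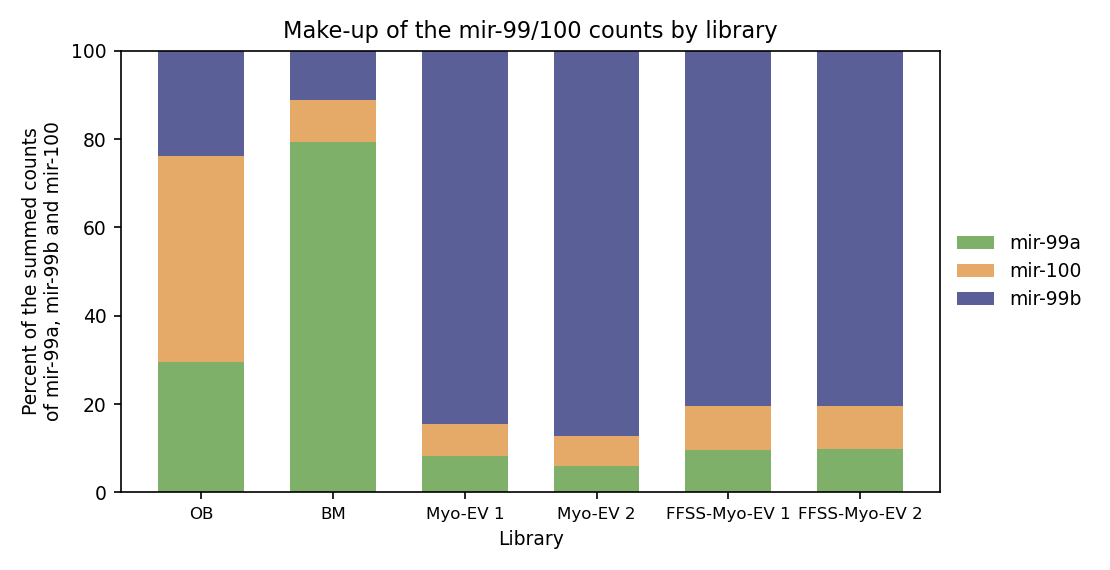
Percent of the summed counts of mir-99a, mir-100 and mir-99b that each entry took, as stacked bars from 0 to 100% for each library. The share of mir-99b was 23.8% in OB, 11.2% in BM and from 80.4% to 87.3% in the 4 vesicle libraries.

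All 6 members were more than 2-fold higher in OB than in BM, where 34.7% of the 444 entries with a mean level of at least 10 over the 4 conditions were, and 0 members were lower, against 29.1%. The ratio of OB to BM was 35.6 for mir-100 (95% interval 34.5 to 36.7), 15.5 for mir-99b (15.1 to 16.0), 12.9 for mir-125b-1, 12.1 for mir-125b-2 and 11.1 for mir-125a. It was 2.70 for mir-99a (2.67 to 2.74), below that of the other 5. Because mir-125b-1 and mir-125b-2 share their 5p strand, they are not separate observations in the counts of members here and below. With 1 library each there was no replicate test. The 6 mesenchymal markers moved in the same direction, with the sums given above, and their part in these ratios was not tested.

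In Myo-EVs, 2 members were more than 2-fold higher than in OB, where 34.5% of entries were. They were mir-125a with a ratio of 8.99 and mir-99b with 2.04, which fell to 1.54 with TMM scaling of the 6 libraries. Another 2 were more than 2-fold lower, where 38.7% of entries were. OB was 11.7 times Myo-EVs for mir-100 and 7.56 times for mir-99a. The ratio of Myo-EVs to OB was 0.620 for mir-125b-1 and 0.710 for mir-125b-2. Compared with BM, Myo-EVs were over 2-fold higher in 5 members, against 35.4% of entries, and lower in 1, against 37.8%. The ratio of Myo-EVs to BM was 99.7 for mir-125a, 31.7 for mir-99b, 8.62 for mir-125b-2, 8.02 for mir-125b-1 and 3.04 for mir-100. The exception was mir-99a, of which BM had 2.80 times the Myo-EV level. For FFSS-Myo-EVs, the ratio to OB was 6.76 for mir-125a, 1.81 for mir-99b, 0.178 for mir-99a and 0.113 for mir-100, and the ratio to BM was 75.0 for mir-125a and 0.481 for mir-99a. Compared with the authors' scaling, TMM lowered Myo-EVs against OB by 0.40 on the log2 scale, and with it mir-125b-1 joined the members that were more than 2-fold lower, 3 in all.

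To compare the mates of a cluster, the ratio of their counts was taken within each library, which does not depend on the scaling between libraries. For mir-99a to mir-125b-2 the ratio was 1.61 in OB (95% interval 1.59 to 1.63) and 7.24 in BM (7.02 to 7.47). It was 0.303 and 0.297 in Myo-EVs against 0.427 and 0.423 in FFSS-Myo-EVs. Thus mir-99a was in excess of its mate in OB and BM and below it in all 4 vesicle libraries. Without a library of C2C12 cells, a trait of vesicles and one of the cell line cannot be told apart here.

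For mir-100 to mir-125b-1 the ratio was 2.10 in OB (2.08 to 2.12), 0.763 in BM (0.732 to 0.795), 0.261 and 0.321 in Myo-EVs against 0.403 and 0.392 in FFSS-Myo-EVs. For mir-99b to mir-125a it was 4.54 in OB (4.45 to 4.63), 3.24 in BM (3.05 to 3.44), 0.869 and 1.21 in Myo-EVs against 1.19 and 1.24 in FFSS-Myo-EVs. The ratio of every pair was higher in OB and in BM than in any vesicle library. The order of OB and BM differed between the pairs, with BM above OB in the pair on chromosome 16 and OB above BM in the other 2.

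**Figure D4:**
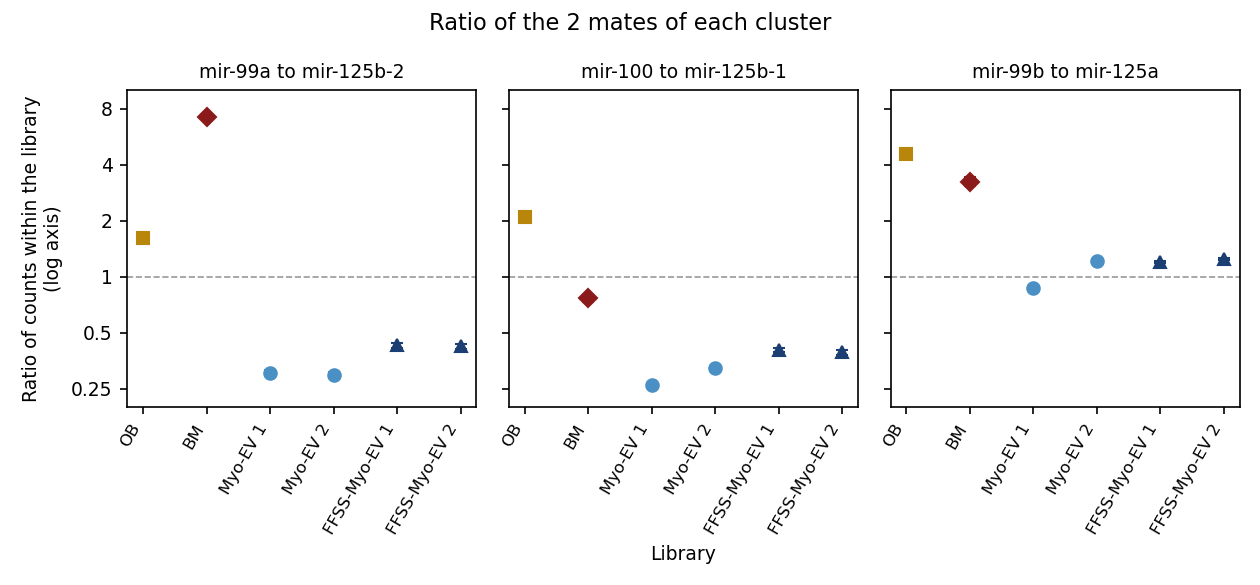
Ratio of the counts of the 2 mates within each library (log axis), in 1 panel per cluster, with 95% exact intervals that are mostly smaller than the symbols and a dashed line at equal counts. The ratio of mir-99a to mir-125b-2 ranged from 0.297 in a Myo-EV library to 7.24 in BM, and all 3 ratios were higher in OB and BM than in the vesicles.

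With FFSS, the ratio of mir-99a to mir-125b-2 was on average higher by 0.50 on the log2 scale, a factor of 1.42, from -1.74 ± 0.02 to -1.24 ± 0.01 (SD, n = 2). The ratio of mir-100 to mir-125b-1 was higher by 0.46, from -1.79 ± 0.21 to -1.33 ± 0.03 (SD, n = 2). In both pairs the FFSS-Myo-EV libraries did not overlap the Myo-EV libraries. For mir-99b to mir-125a the difference was 0.25 and the groups overlapped, because the second Myo-EV library lay between the FFSS-Myo-EV libraries, and without that library it was 0.49 and without the first 0.0090. The two-sided exact permutation p was 0.333 for the first 2 pairs and 0.667 for the third, and 0.5, 0.5 and 0.667 after Benjamini-Hochberg adjustment over these 3 tests. A p of 0.333 is the smallest that 2 libraries against 2 can give, so none of the 3 differences passed the test.

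The mate ratios of the 2 distant pairs rest on the shared miR-125b-5p. The count of mir-125b-1 was 1.22 times that of mir-125b-2 in OB, 1.15 times in BM and from 1.06 to 1.08 times in the vesicles. The excess of mir-125b-1 over mir-125b-2 was 8924 counts in OB, or 18.2% of the mir-125b-1 count. It was 12.7% in BM and from 5.68% to 7.20% in the vesicles. How reads that match both copies were assigned is not given in the sources used here, so the 2 copies were not compared further, and the ratios involving them describe the sum of both loci in part. The number of mismatches allowed is not given either, so that reads of miR-99a-5p and miR-100-5p may have been counted for the other entry.

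FFSS-Myo-EVs and Myo-EVs were compared with edgeR's quasi-likelihood test on the counts of the 4 vesicle libraries. The test asks which entries differ between these libraries. With 2 libraries a group that may not be separate cultures, it cannot settle which miRNAs shear stress changed. Of the 6 members, mir-125a was called lower at an adjusted p below 0.05, 1 of 6, against 18.4% of the 354 entries tested. In edgeR, 0 members were called higher, against 12.1% of entries. At an unadjusted p under 0.05, 2 members were higher and 1 lower, where 138 of the 354 entries tested passed in either direction. Over all entries, edgeR called 43 higher and 65 lower, a balance that turned round with the authors' scaling, to 54 higher and 39 lower. Of the same 354 entries, DESeq2 called 36 higher, among them 1 member, mir-100. Limma called 57 higher with a pseudocount of 1 and 56 with a pseudocount of 10, among them mir-99a and mir-100. Both belong to a list that the study drew up from these libraries, so that their direction here is not independent evidence. Some markers of other sources, all at low levels, also had values that did not overlap between these groups. The level of mir-122 was 6.0 and 4.8 in Myo-EVs against 17.9 and 15.5 in FFSS-Myo-EVs. The sum of the 4 blood cell markers was 11.0 and 9.6 against 43.9 and 34.3, with mir-223 and mir-144 at 0 in the second Myo-EV library. The largest part of that difference was mir-451a, with 3.0 and 4.8 against 25.9 and 17.7. The values of mir-223 were 1.0 and 0.0 against 7.0 and 5.5. The groups overlapped for mir-150 and met at 4.0 for mir-144. On TMM-scaled values, 26.0% of the entries tested had both FFSS-Myo-EV libraries above the Myo-EV libraries. This share is not a like background for the markers, whose values are on the authors' scaling. In addition, mir-223, mir-144 and mir-150 had a mean level below 10 in the vesicles and were not tested. The part of these sources in the members' changes was not tested.

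The level of mir-125a fell with FFSS, by 0.54 on the log2 scale with a standard error of 0.19 (edgeR adjusted p = 0.0163, Benjamini-Hochberg over 354 entries). The call was lost when either FFSS-Myo-EV library was left out, with adjusted p of 0.214 and 0.487 in edgeR, although the log2 fold change stayed between -0.64 and -0.42. Over its 14 alternatives the adjusted p ranged from 0.000701 to 0.487 and was under 0.05 in 12.

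For mir-99a the log2 fold change was 0.30 (standard error 0.13, edgeR adjusted p = 0.0753), and for mir-100 it was 0.28 (standard error 0.13, edgeR adjusted p = 0.109). On the authors' scaling the ratio of the means was 1.35 and 1.32, respectively, a scaling that puts FFSS-Myo-EVs higher than TMM does by 0.12 (log2). With the authors' scaling in edgeR the adjusted p was 0.0146 and 0.0251. The adjusted p of mir-99a was also under 0.05 without the first or without the second Myo-EV library (0.00520 and 0.0387), as was that of mir-100 without the second (0.0104). Over the 14 alternatives it was under 0.05 in 7 for mir-99a, with a range from 0.0052 to 0.540, and in 6 for mir-100, with a range from 0.0104 to 0.632.

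The other 3 members had log2 fold changes of -0.29 for mir-99b (standard error 0.19), -0.20 for mir-125b-2 and -0.19 for mir-125b-1 (standard error 0.15 each), with edgeR adjusted p of 0.269, 0.364 and 0.408. Without the first Myo-EV library mir-99b was called lower (edgeR adjusted p = 0.00426), and without the second, mir-125b-1 and mir-125b-2 were (0.0289 and 0.0218). On TMM-scaled values, the FFSS-Myo-EV libraries did not overlap the Myo-EV libraries and lay above them in 2 members, mir-99a and mir-100, where 26.0% of entries tested were, and below them in the other 4, where 32.5% were. On the authors' scaling mir-99b, mir-125b-1 and mir-125b-2 overlapped. The median log2 fold change was -0.19 over the 6 members and -0.02 over all entries tested.

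**Figure D5:**
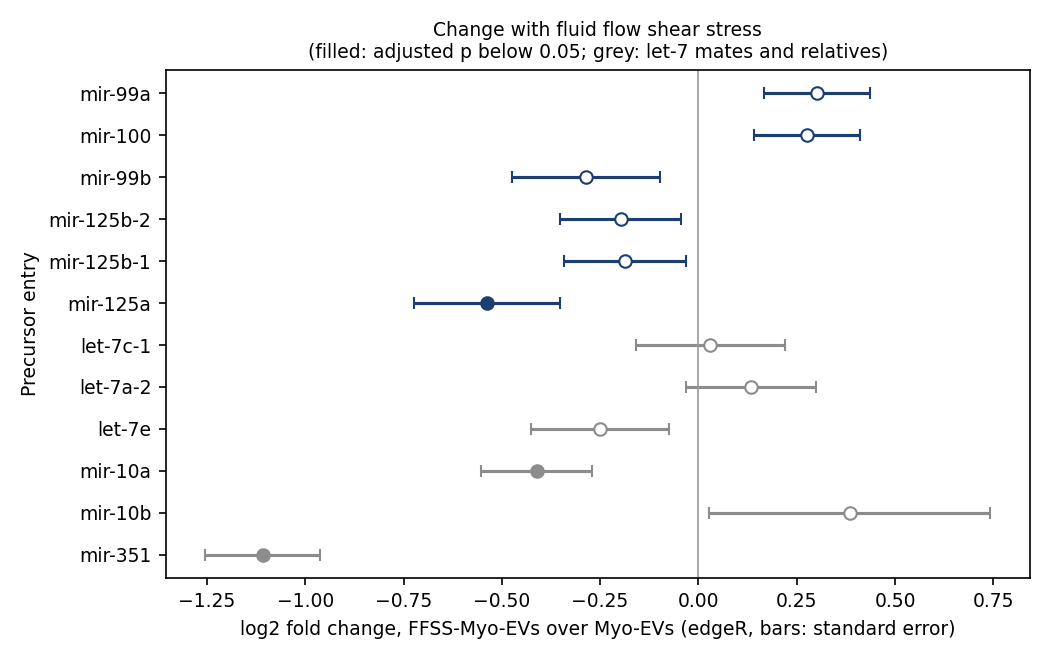
Log2 fold change of FFSS-Myo-EVs over Myo-EVs in edgeR with its standard error (bars) for the 6 members (blue) and for the let-7 mates and sequence relatives (grey), filled where the adjusted p was below 0.05. Among the members only mir-125a, at -0.54, was called, and mir-351 had the lowest value, -1.11.

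The let-7 entries of the clusters were let-7c-1, let-7a-2 and let-7e, of a family known for holding cells in the differentiated state. None of the 3 was called in edgeR, with log2 fold changes of 0.03, 0.13 and -0.25 and adjusted p of 0.935, 0.631 and 0.309, and 0 had an unadjusted p under 0.05. Of 3 relatives in sequence, mir-351 and mir-10a were called lower and mir-10b was not called. The entry mir-351, which has the mir-125 seed and lies on the X chromosome, was 12893.2 and 13087.0 in Myo-EVs against 6603.8 and 6524.4 in FFSS-Myo-EVs. Its log2 fold change was -1.11 (standard error 0.15, edgeR adjusted p = 2.58e-12). The level of mir-10a, of the Hox-linked mir-10 family whose mature strand resembles miR-100-5p, was 8987.3 and 9577.8 in Myo-EVs against 7742.5 and 7440.3 in FFSS-Myo-EVs (log2 fold change -0.41, standard error 0.14, edgeR adjusted p = 0.0162). In OB mir-10a was only 140.3 and in BM 34875.3, whereas mir-10b was 1535.8 in OB, 195.8 in BM and at most 49.8 in vesicles.

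Among the 246 entries with a mean level of at least 100, those outside the 6 members with the pattern most like each member were found. The measure was Pearson's r of log2 values over the 6 libraries. The 4 vesicle libraries resemble one another, so r rests largely on 3 levels and is given as a description. The nearest to mir-125a was let-7e (r = 0.997), which lies between mir-99b and mir-125a, followed by mir-193a (0.997). The nearest to mir-99b were mir-145a (0.995) and mir-31 (0.994). The nearest to mir-100 were mir-152 (0.995) and mir-199a-2 (0.970), and those to mir-99a were mir-10b (0.996) and mir-335 (0.977). The nearest to mir-125b-1 were mir-450b (0.989) and mir-3102 (0.987), and to mir-125b-2 mir-34b (0.989) and mir-214 (0.986). Between mates, r was 0.96 for mir-99b and mir-125a, 0.75 for mir-100 and mir-125b-1 and -0.11 for mir-99a and mir-125b-2. High values were not particular to mates, with 0.93 for mir-99b and mir-125b-2 and 0.91 for mir-99b and mir-125b-1. Other pairs that are not mates were low, such as mir-99a and mir-125a with -0.66.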

How the data were processed

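Per the paper's methods, the authors annotated grouped reads against miRBase with CLC Genomics Workbench. The deposited counts are per precursor, and from these the authors made normalized values, a signal that amounts to 1 constant per library in the deposited file. The miRBase release is not given in the sources used here. Genome positions and hosts were taken from GENCODE M21. The members and lists were chosen with earlier results of these data known. Named entries are the 6 members, the let-7 entry of each cluster, mir-10a, mir-10b, mir-351 and marker lists. For each member the 2 entries outside the members nearest in pattern are also named, with a pseudocount of 1.

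Changes were tested in edgeR 4.0.16 (R 4.3.3) with TMM factors and the quasi-likelihood test for entries with a mean level of at least 10 over the 4 vesicle libraries, with Benjamini-Hochberg adjustment. The 2 libraries a group leave 2 residual degrees of freedom. The prior degrees of freedom, the weight of the trend over all entries, were estimated as infinite, so edgeR took the quasi-likelihood spread wholly from that trend. Its standard errors and p-values thus measure a spread between libraries shared by entries of similar level, not that of the entry itself. Nothing says that the libraries of a group came from separate cultures, so the spread between them may be technical. Replicates differed by more than sampling noise (chi-square per degree of freedom 93.3 for Myo-EVs and 15.9 for FFSS-Myo-EVs). On simulated counts for the 354 entries tested (dispersion 0.0108), edgeR called 168 of 200 entries given a 2-fold change, and 1 without one. These counts had 1 dispersion for all entries and both groups, taken from the same fit. The simulation thus does not measure errors at the unequal spread of the real replicates, or for the smaller changes of the members. Limma 3.58.1 and DESeq2 1.42.0 served as alternatives, beside other scalings, filters, a replicate block, the mir-125b copies as 1 entry, and libraries left out in turn. Python 3.11.15 with scipy 1.17.1 gave intervals and permutation tests.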

Additional observations from a re-analysis of the deposited data

How the results depend on the processing

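No member changed direction under any alternative run for its fold change or mate ratio. The number of entries called was 43 higher and 65 lower in edgeR. The balance turned round with the authors' scaling, at 54 higher and 39 lower, with limma, at 57 higher and 37 lower with a pseudocount of 1 and 56 and 37 with a pseudocount of 10, and with library totals, at 49 and 46. When each vesicle library was left out in turn, which leaves 1 group with a single library assumed to vary like the other group, from 15 to 51 were higher and from 18 to 75 lower. The log2 fold change of mir-99a, 0.30, passed the threshold at 0.38 with library totals, 0.43 with the authors' scaling, 0.35 with a mean of at least 100, and 0.43 with limma at either pseudocount. That of mir-100, 0.28, passed at 0.40 with the authors' scaling, 0.32 with a mean of at least 100, 0.30 with DESeq2, and 0.40 with limma at either pseudocount. The cause was not tested. With libraries left out, the ranges were 0.23 to 0.40 for mir-99a, -0.45 to -0.11 for mir-99b, 0.20 to 0.37 for mir-100, -0.64 to -0.42 for mir-125a, -0.25 to -0.11 for mir-125b-1 and -0.26 to -0.11 for mir-125b-2. The number of members over 2-fold higher in Myo-EVs than in OB, 2, was 1 with TMM or median-of-ratios scaling and from 1 to 2 with a Myo-EV library left out. With a mean of at least 100, which tests fewer entries, 83 entries were higher and 86 lower in Myo-EVs than in OB, 94 higher and 83 lower than in BM, and 96 higher and 77 lower in OB than in BM. With the replicate block, which rests on the number in the titles alone, 44 entries were higher and 66 lower, mir-125a had a log2 fold change of -0.53 (edgeR adjusted p = 0.0194), and the block changed no call of a member. Deviations of libraries with the same number correlated with r = 0.21 across entries. With 2 libraries a group, the spread between libraries is poorly known, and counting error was not the limit at these levels. On the authors' scaling the groups overlapped for mir-99b, mir-125b-1 and mir-125b-2 and did not for mir-99a, mir-100 and mir-125a.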

Other observations

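The let-7 gene of each cluster lies nearer to the mir-99/100 gene than the mir-125 gene does, and the counts of these neighbours were set side by side within each library. On chromosome 16 only 656 bases separate mir-99a from let-7c-1. The ratio of mir-99a to let-7c-1 was 1.21 in OB, 2.06 in BM, 0.0821 and 0.0893 in Myo-EVs against 0.103 and 0.102 in FFSS-Myo-EVs. Both genes lie in introns of Mir99ahg, and the ratio was higher in OB and BM than in every vesicle library. On chromosome 9 the ratio of mir-100 to let-7a-2 was 3.05 in OB and 0.0963 in BM, with 0.165 and 0.250 in Myo-EVs against 0.224 and 0.216 in FFSS-Myo-EVs, so that here BM had the lowest ratio. On chromosome 17, where 94 bases separate mir-99b from let-7e, the ratio of mir-99b to let-7e was 3.42 in OB, 1.87 in BM, 1.30 and 1.94 in Myo-EVs against 1.62 and 1.46 in FFSS-Myo-EVs. As a fold between the highest and the lowest library, this ratio varied less than the other 2. The entries let-7c-1 and let-7a-2 have near copies elsewhere in the genome, and reads shared with these cannot be told apart here.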
